A study of Mus musculus with 12 samples.

Results

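Bile acid synthesis and conjugation in mouse liver was followed through 8 enzyme genes, namely Cyp7a1, Cyp8b1, Cyp27a1, Cyp7b1, Hsd3b7, Akr1d1, Slc27a5 and Baat. They were chosen by name as enzymes of this pathway, by a rule that holds no measured value but with earlier results of these data known, and are 8 of the 55357 genes in the count table. All 8 passed the filter on low counts and were tested among 17358 genes. Liver RNA was sequenced in 12 libraries from male C57BL/6J mice that all carried floxed alleles of Ppara, the gene of the lipid-sensing nuclear receptor PPARα. WT mice were PPARa fl/fl AlbuminCre +/+, and KO mice were PPARa fl/fl AlbuminCre Tg/+, so that Cre was driven by the hepatocyte gene Albumin and other liver cells kept Ppara. From 7 weeks of age the mice received chow or CDAHFD, a choline-deficient high-fat diet with defined amino acids that produces fatty liver with inflammation, for 6 weeks. The groups were WT chow (4 libraries), WT CDAHFD (3), KO chow (2) and KO CDAHFD (3). The paper states that RNA of 3 mice per group was sequenced. This differs from the labels for WT chow and KO chow, and the labels were followed. Each library was taken as its own mouse. The labels do not state this, so the p-values measure the spread between libraries.

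Hepatocytes make bile acids from cholesterol by a classic route, opened by Cyp7a1, and an alternative route, in which Cyp27a1 oxidises the sterol side chain and Cyp7b1 hydroxylates the ring. Cyp8b1 directs the classic route towards cholic acid, Hsd3b7 and Akr1d1 modify the sterol rings of intermediates of both routes, and Slc27a5 and Baat join the finished acids to CoA and then to taurine or glycine. The bile acid receptor FXR (Nr1h4), with its target Nr0b2, restrains the pathway, and Cyp7a1 is known for a strong daily rhythm.

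Total counts were 29906785 to 43551003 per library. Levels are given as CPM, counts scaled to equal library totals after TMM normalisation, a correction for libraries dominated by a few abundant RNAs. The TMM factors were 0.729 to 0.827 in WT chow and 1.03 to 1.26 in the other groups. Groups were compared with the quasi-likelihood test of edgeR, fitted to all 4 groups. The p-values were adjusted by Benjamini-Hochberg across every gene in the test, and a gene was called at an adjusted p under 0.05. Ppara itself stood at 120, 96.2, 238 and 226 CPM in WT chow and at 59.5, 75.5 and 73.5 CPM in WT CDAHFD. It stood at 14.4 and 38.6 CPM in KO chow and at 36.3, 20.7 and 51.9 CPM in KO CDAHFD, so that KO libraries lay below WT libraries of the same diet. Ppara fell by 2.68 ± 0.50 (log2, standard error) in KO chow against WT chow (adjusted p = 0.00111), whereas the difference on CDAHFD was -0.94 ± 0.42 (adjusted p = 0.547). These are reads over the whole gene, so that any exon left in place by the deletion would add to them, and single exons were not examined. By qPCR and western blot, the paper found no significant PPARα expression in KO liver, with mice of both diets examined. The paper proposes that residual Ppara RNA in KO liver may come from non-hepatocytes, mainly stellate cells, which was not tested here.

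Upstream sequence of the route enzymes is given for the pair that has an entry in the RefSeq promoter table (build GRCm38.p6), 1 enzyme of each route, and covers the 250 bases before the annotated start. Capitals mark the letters CAAAGTCCA, a motif of the hepatocyte nuclear receptor HNF4α. The Cyp8b1 window is chr9:121916306-121916555 on the minus strand, and the Cyp27a1 window is chr1:74713285-74713534 on the plus strand.
Cyp8b1: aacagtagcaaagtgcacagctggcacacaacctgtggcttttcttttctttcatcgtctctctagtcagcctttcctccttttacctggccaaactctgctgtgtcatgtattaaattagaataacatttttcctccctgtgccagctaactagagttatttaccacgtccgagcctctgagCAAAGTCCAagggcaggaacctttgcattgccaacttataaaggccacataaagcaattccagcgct
Cyp27a1: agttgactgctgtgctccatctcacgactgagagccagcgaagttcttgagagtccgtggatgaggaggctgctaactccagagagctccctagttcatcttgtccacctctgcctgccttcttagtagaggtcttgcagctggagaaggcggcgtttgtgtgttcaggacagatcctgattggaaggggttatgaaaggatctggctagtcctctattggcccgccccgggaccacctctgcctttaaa
The HNF4 motif lay 67 to 59 bases before the start of Cyp8b1 and was not among the letters of the Cyp27a1 window. It was searched on both strands after the Cyp8b1 window had been read, and 0.384% of 32851 promoter windows of this length held it. Neither window held the nuclear receptor core AGGTCA (14.0% of windows), its extended form TCAAGGTCA (0.387%), a direct repeat of AGGTCA spaced by 1 base (0.0335%) or the clock-factor E-box CACGTG (6.02%). The extended form and the repeat contain the core, so these searches overlap. A match or its absence describes these letters in this window and nothing about a factor. Hnf4a, which encodes HNF4α and is named here because of this motif, fell by 0.94 ± 0.26 (log2, standard error) in KO chow against WT chow (adjusted p = 0.0133) and by 0.80 ± 0.23 in WT CDAHFD (adjusted p = 0.0107). It spanned 547 to 1152 CPM in WT chow, 384 to 491 CPM in KO chow and 435 to 556 CPM in WT CDAHFD, so that WT CDAHFD overlapped WT chow.

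Per kilobase of exon, the order of the enzymes differed between the groups. In WT chow Cyp7b1 led with 423 ± 129 CPM per kb (SD, n = 4), followed by Slc27a5 with 398 ± 50.4, Cyp27a1 with 307 ± 16.0, Cyp8b1 with 236 ± 48.6, Baat with 212 ± 20.6, Akr1d1 with 55.1 ± 13.1, Cyp7a1 with 13.8 ± 7.04 and Hsd3b7 with 1.02 ± 0.38. Cyp7b1 did not differ from Slc27a5 or Cyp27a1 beyond its spread, nor did Cyp8b1 from Baat, so neighbours in this order are not all set apart. In KO CDAHFD Cyp7b1 stood seventh of the 8 with 20.5 ± 5.64 CPM per kb (SD, n = 3). It was below Akr1d1 with 33.0 ± 1.11 and Cyp7a1 with 34.9 ± 30.6, although Cyp7b1 and Cyp7a1 overlapped. Slc27a5 headed the order in KO CDAHFD with 122 ± 6.04 CPM per kb, and Hsd3b7 was last in every group.

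**Figure D1:**
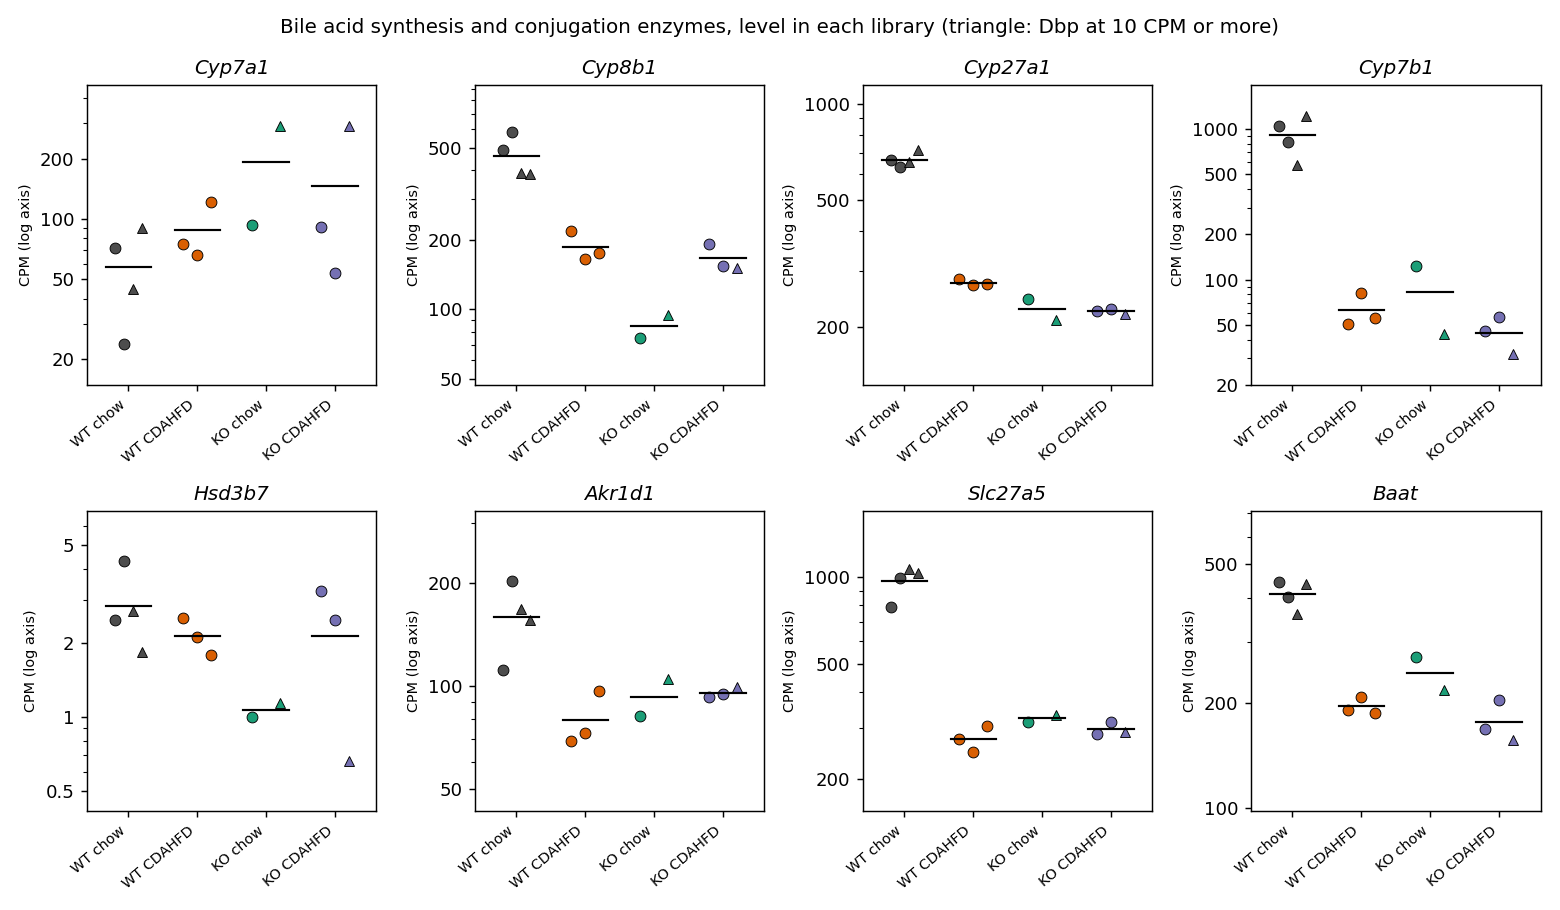
Level of each of the 8 enzymes in each of the 12 libraries, as CPM on a log axis. Points are libraries, horizontal bars are group means and triangles mark libraries with Dbp at 10 CPM or more. Cyp8b1, Cyp27a1, Cyp7b1, Akr1d1, Slc27a5 and Baat in WT chow lie above all other groups, while for Cyp7a1 the highest points are KO chow 2 and KO CDAHFD 3 at 292 and 291 CPM.

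Compared with WT chow, 7 of the 8 enzymes fell in KO chow and 1, Cyp7a1, rose. Among all genes tested, 17.0% were called lower and 22.0% higher in this comparison. In WT CDAHFD against WT chow 6 of the 8 fell and none rose, where 25.0% of all genes were called lower and 26.1% higher. The median log2 fold change over the 8 enzymes was -1.48 in KO chow, beside 0.00 over all genes, and -1.17 in WT CDAHFD, beside -0.05 over all genes. Both comparisons use the same WT chow libraries.

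Cyp7a1, the rate-limiting enzyme of the classic route (chromosome 4, 6265612 to 6275633, minus strand, GRCm38), was at 71.5, 23.7, 44.7 and 90.6 CPM in WT chow and at 75.1, 66.5 and 122 CPM in WT CDAHFD. It was at 93.1 and 292 CPM in KO chow and at 91.4, 53.6 and 291 CPM in KO CDAHFD. KO chow and WT chow did not overlap, but KO chow 1 only slightly exceeded WT chow 4, and all other pairs of groups overlapped. The rise in KO chow was 1.74 ± 0.62 (log2, adjusted p = 0.0413, higher in 2 of 2 libraries). The remaining differences were 0.61 ± 0.57 in WT CDAHFD against WT chow (adjusted p = 0.394), 0.73 ± 0.61 between the genotypes on CDAHFD (adjusted p = 0.791) and -0.40 ± 0.67 between the diets in KO mice (adjusted p = 0.769).

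The highest Cyp7a1 values stood in KO chow 2 and KO CDAHFD 3, which were the KO libraries with Dbp at 10 CPM or more. WT chow 3 and 4 also passed this cut, with lower Cyp7a1, but the libraries above it differed in Dbp. Dbp, a circadian output gene, was at 130 and 85.9 CPM in WT chow 3 and 4, at 44.8 CPM in KO chow 2 and at 117 CPM in KO CDAHFD 3, and at 0.388 to 3.75 CPM in the other 8 libraries. Arntl, the core clock gene that peaks opposite to Dbp, was at 2.88 to 15.4 CPM in the libraries of high Dbp and at 25.5 to 48.6 CPM in the others. Of the libraries of high Dbp, KO chow 2 had the lowest Dbp and the highest Arntl. Among libraries of high Dbp, Cyp7a1 was at 44.7 and 90.6 CPM in WT chow, against 292 CPM in KO chow 2 and 291 CPM in KO CDAHFD 3. Among libraries of low Dbp, Cyp7a1 was at 23.7 and 71.5 CPM in WT chow, 66.5 to 122 CPM in WT CDAHFD, 93.1 CPM in KO chow 1, and 53.6 and 91.4 CPM in KO CDAHFD. No WT CDAHFD library had high Dbp. With a clock score of 15 genes as covariate the KO chow difference was 1.69 (adjusted p = 0.0157). Without the libraries of high Dbp it was 0.97 (adjusted p = 0.22), and without KO chow 2 alone 0.70 (adjusted p = 0.512). Both fits leave KO chow with 1 library, which is assumed to vary like those of the other groups. By DESeq2 the difference was 1.75 (adjusted p = 0.0659). The call was also lost without WT CDAHFD 1 or 2 or without WT chow 2 or 3, with adjusted p of 0.0513 to 0.0885. The part of the clock state in the Cyp7a1 level was not tested beyond these fits, and the time of day of each sample was not used.

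**Figure D2:**
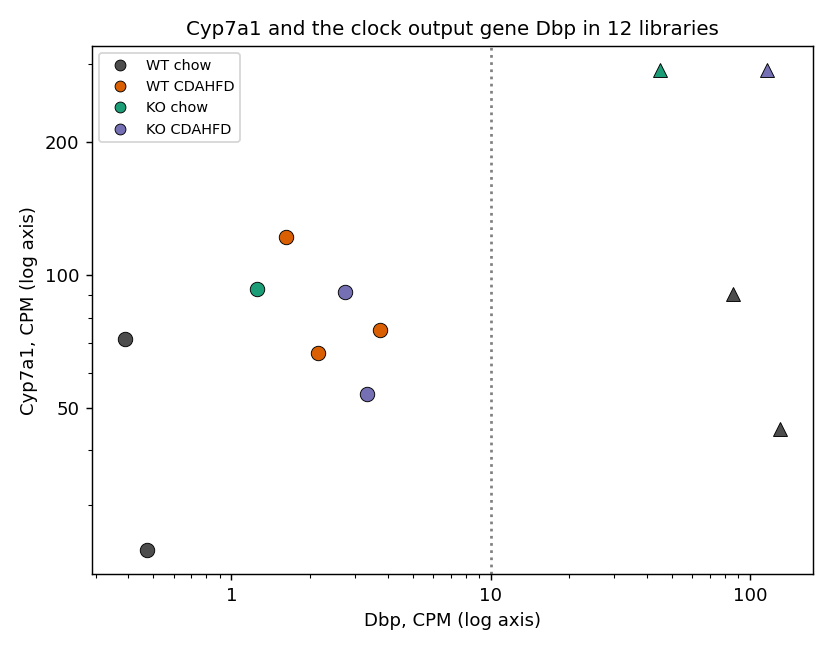
Cyp7a1 against Dbp in the 12 libraries, both as CPM on log axes, with the dotted line at 10 CPM of Dbp. Of the 4 libraries to its right (triangles), the KO libraries are at 292 and 291 CPM of Cyp7a1 and the WT chow libraries at 44.7 and 90.6 CPM.

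Cyp8b1, the cholic acid enzyme (chromosome 9, 121914356 to 121916305, minus strand, a gene of 1 exon), was at 487, 583, 386 and 385 CPM in WT chow and at 217, 165 and 174 CPM in WT CDAHFD. It was at 75.0 and 94.1 CPM in KO chow and at 192, 154 and 151 CPM in KO CDAHFD. WT chow was highest and KO chow lowest without overlap, and the CDAHFD groups overlapped each other. Relative to WT chow it fell by 2.45 ± 0.22 in KO chow (adjusted p = 3.21e-06) and by 1.31 ± 0.17 in WT CDAHFD (adjusted p = 4.6e-05). Within KO mice Cyp8b1 was the only enzyme of the 8 called between diets, rising by 0.97 ± 0.21 on CDAHFD (adjusted p = 0.0194), where 3.76% of all genes were called higher and 2.44% lower. That call was lost without KO CDAHFD 1 (adjusted p = 0.0648), KO chow 1 (adjusted p = 0.168) or KO chow 2 (adjusted p = 0.0566). The opposite movements of Cyp7a1 and Cyp8b1 in KO chow put the ratio of their CPM at 0.323 and 0.805 Cyp8b1 per Cyp7a1, against 4.25 to 24.6 in WT chow, with the CDAHFD libraries at 0.519 to 2.89.

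Cyp27a1, the mitochondrial side-chain hydroxylase (chromosome 1, 74713574 to 74737892, plus strand), varied little within groups. It was at 666, 632, 658 and 715 CPM in WT chow, at 281, 270 and 273 CPM in WT CDAHFD, at 244 and 210 CPM in KO chow and at 224, 228 and 219 CPM in KO CDAHFD. WT chow stood apart from every other group. It fell by 1.55 ± 0.11 (log2) in KO chow (adjusted p = 7.22e-07) and by 1.28 ± 0.10 in WT CDAHFD (adjusted p = 3.69e-07). KO CDAHFD lay below WT CDAHFD without overlap, with a difference of -0.30 ± 0.10 (adjusted p = 0.37).

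Cyp7b1, the oxysterol hydroxylase of the alternative route (chromosome 3, 18071950 to 18243338, minus strand), showed the largest fall of the 8. It was at 1045, 819, 580 and 1224 CPM in WT chow and at 50.6, 82.2 and 55.6 CPM in WT CDAHFD. It was at 122 and 43.5 CPM in KO chow and at 45.3, 56.3 and 31.9 CPM in KO CDAHFD. The lowest WT chow library exceeded the highest library of any other group, and the other 3 groups overlapped one another. On the log2 scale it fell by 3.47 ± 0.46 in KO chow (11.1-fold, adjusted p = 7.77e-05) and by 3.87 ± 0.39 in WT CDAHFD (14.6-fold, adjusted p = 4.8e-06). The KO chow value was -2.90 without KO chow 2 and -4.38 without KO chow 1. On CDAHFD the KO differed from the WT by -0.50 ± 0.36 (adjusted p = 0.76). Between the diets within KO mice the difference was -0.90 ± 0.40 (adjusted p = 0.2).

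The balance of the routes was described within each library as the mean log2 CPM of Cyp7a1 and Cyp8b1 minus that of Cyp27a1 and Cyp7b1. This quantity does not depend on depth or scaling, and only its differences between libraries are read, since it is not corrected for gene length. It was -2.33 ± 0.20 in WT chow (SD, n = 4), -0.06 ± 0.40 in WT CDAHFD (n = 3), -0.13 ± 1.3 in KO chow (n = 2) and 0.47 ± 0.83 in KO CDAHFD (n = 3). All 4 WT chow libraries, from -2.61 to -2.16, lay below the other 8, from -1.05 to 1.33. The group means thus differed from WT chow by 2.20 in KO chow and 2.28 in WT CDAHFD, towards the classic enzymes. The difference for KO chow was 1.28 without KO chow 2 and 3.12 without KO chow 1. Of the 4 enzymes Cyp7b1 moved furthest in both comparisons. The ratio of Cyp7a1 to Cyp7b1 CPM was 0.029 to 0.077 in WT chow. In WT CDAHFD it was 0.810 to 2.19, in KO chow 0.761 and 6.70, and in KO CDAHFD 0.952 to 9.14. By contrast, the ratio of Cyp8b1 to Cyp27a1 spanned 0.538 to 0.923 in WT chow, a range that held the 0.609 to 0.771 of WT CDAHFD and the 0.675 to 0.856 of KO CDAHFD. In KO chow it was 0.307 and 0.448, below every other library.

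**Figure D3:**
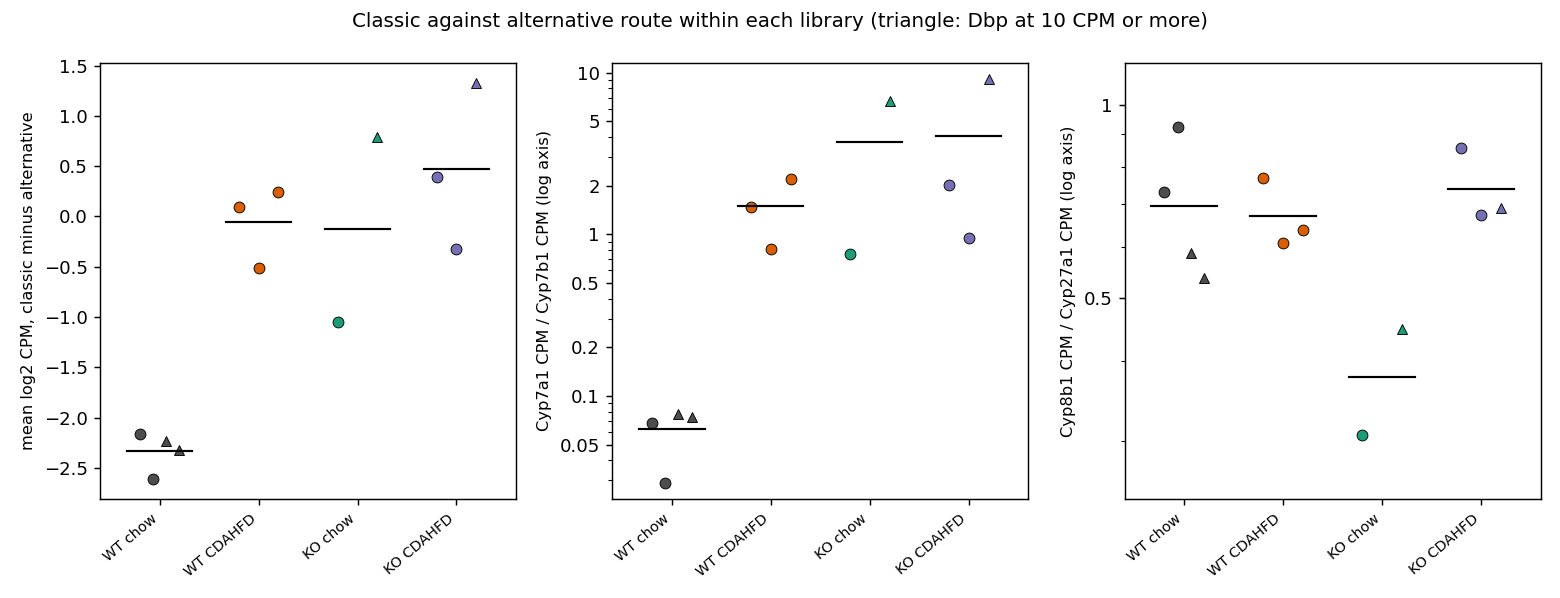
Route balance within each library. Left, mean log2 CPM of Cyp7a1 and Cyp8b1 minus that of Cyp27a1 and Cyp7b1; middle and right, ratios of CPM on log axes; points are libraries, bars are group means and triangles mark Dbp at 10 CPM or more. WT chow lies lowest in the left and middle panels, whereas in the right panel only KO chow, at 0.307 and 0.448, stands apart.

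Of the ring-modifying enzymes, Akr1d1, the steroid reductase that saturates the ring (chromosome 6, 37530173 to 37568815, plus strand), was at 111, 203, 167 and 156 CPM in WT chow and at 68.9, 73.0 and 96.3 CPM in WT CDAHFD. It was at 81.6 and 104 CPM in KO chow and at 92.8, 94.7 and 99.1 CPM in KO CDAHFD. WT chow was the highest group, with WT chow 1 only slightly above KO chow 2. It fell by 0.78 ± 0.21 (log2) in KO chow (adjusted p = 0.0115; 0.144 without KO chow 1, 0.055 without the libraries of high Dbp) and by 1.0 ± 0.19 in WT CDAHFD (adjusted p = 0.00064). A processed pseudogene inside Akr1d1 held counts equal to 2.06% of those of Akr1d1 and shared no exon base with it.

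Hsd3b7, the dehydrogenase that acts on the ring after hydroxylation (chromosome 7, 127800604 to 127803802, plus strand), was detected at a low level, with 28 to 137 counts per library. It was at 2.48, 4.31, 2.7 and 1.83 CPM in WT chow, at 2.52, 2.12 and 1.79 CPM in WT CDAHFD, at 1.01 and 1.14 CPM in KO chow and at 3.25, 2.49 and 0.666 CPM in KO CDAHFD. The difference in KO chow was -1.41 ± 0.52 (log2, adjusted p = 0.0463), a call lost when any of 9 of the 12 libraries was left out (adjusted p of up to 0.206). Its level is uncertain. The annotation places a coding gene without counts over 1717 of its exon bases and an unspliced antisense transcript over 1729, and the libraries keep no strand. The antisense transcript held 297 counts over all libraries, beside 975 for Hsd3b7.

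Conjugation enzymes fell in both comparisons. Slc27a5, the bile acid CoA ligase (chromosome 7, 12988346 to 12998192, minus strand), was at 792, 997, 1065 and 1032 CPM in WT chow, at 275, 247 and 305 CPM in WT CDAHFD, at 316 and 333 CPM in KO chow and at 287, 314 and 291 CPM in KO CDAHFD. All libraries outside WT chow lay within a narrow band far below WT chow. It fell by 1.58 ± 0.15 (log2) in KO chow (adjusted p = 4.67e-06) and by 1.82 ± 0.13 in WT CDAHFD (adjusted p = 2.23e-07). Baat, which transfers the activated acid to taurine or glycine (chromosome 4, 49489422 to 49506557, minus strand), was at 445, 402, 359 and 440 CPM in WT chow, at 192, 209 and 188 CPM in WT CDAHFD, at 270 and 218 CPM in KO chow and at 169, 204 and 157 CPM in KO CDAHFD. WT chow again did not overlap the rest. Baat fell by 0.75 ± 0.15 (log2) in KO chow (adjusted p = 0.00135) and by 1.07 ± 0.13 in WT CDAHFD (adjusted p = 1.9e-05). On CDAHFD, KO and WT differed by 0.11 ± 0.13 for Slc27a5 (adjusted p = 0.866) and by -0.15 ± 0.13 for Baat (adjusted p = 0.802). The ratio of Slc27a5 to Baat CPM was 1.78 to 2.97 in WT chow and 1.17 to 1.85 in the other 8 libraries, ranges that overlap.

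Whether the genotype effect differed between the diets was tested as the interaction, the KO minus WT difference on CDAHFD less that on chow. It was positive and called for 6 of the 8 enzymes, where 8.63% of all genes were called higher and 14.5% lower. The values were 2.28 ± 0.27 (log2) for Cyp8b1 (adjusted p = 8.46e-05), 1.26 ± 0.15 for Cyp27a1 (adjusted p = 7.4e-05), 2.97 ± 0.55 for Cyp7b1 (adjusted p = 0.00191), 1.04 ± 0.29 for Akr1d1 (adjusted p = 0.019), 1.69 ± 0.19 for Slc27a5 (adjusted p = 6.3e-05) and 0.60 ± 0.20 for Baat (adjusted p = 0.0415). For Cyp7b1 it was 2.40 without KO chow 2 and 3.89 without KO chow 1. The calls of Baat and Akr1d1 were lost when any of 7 and 3 libraries, respectively, was left out. Cyp7a1 (-1.01 ± 0.88, adjusted p = 0.457) and Hsd3b7 (1.40 ± 0.67, adjusted p = 0.162) were not called. In KO CDAHFD against WT CDAHFD none of the 8 was called by edgeR, 1 (Cyp27a1) had an unadjusted p under 0.05 and DESeq2 called 1 (Cyp27a1, -0.30, adjusted p = 0.0458). Of all genes 0.357% were called in this comparison by edgeR and 1.41% by DESeq2.

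**Figure D4:**
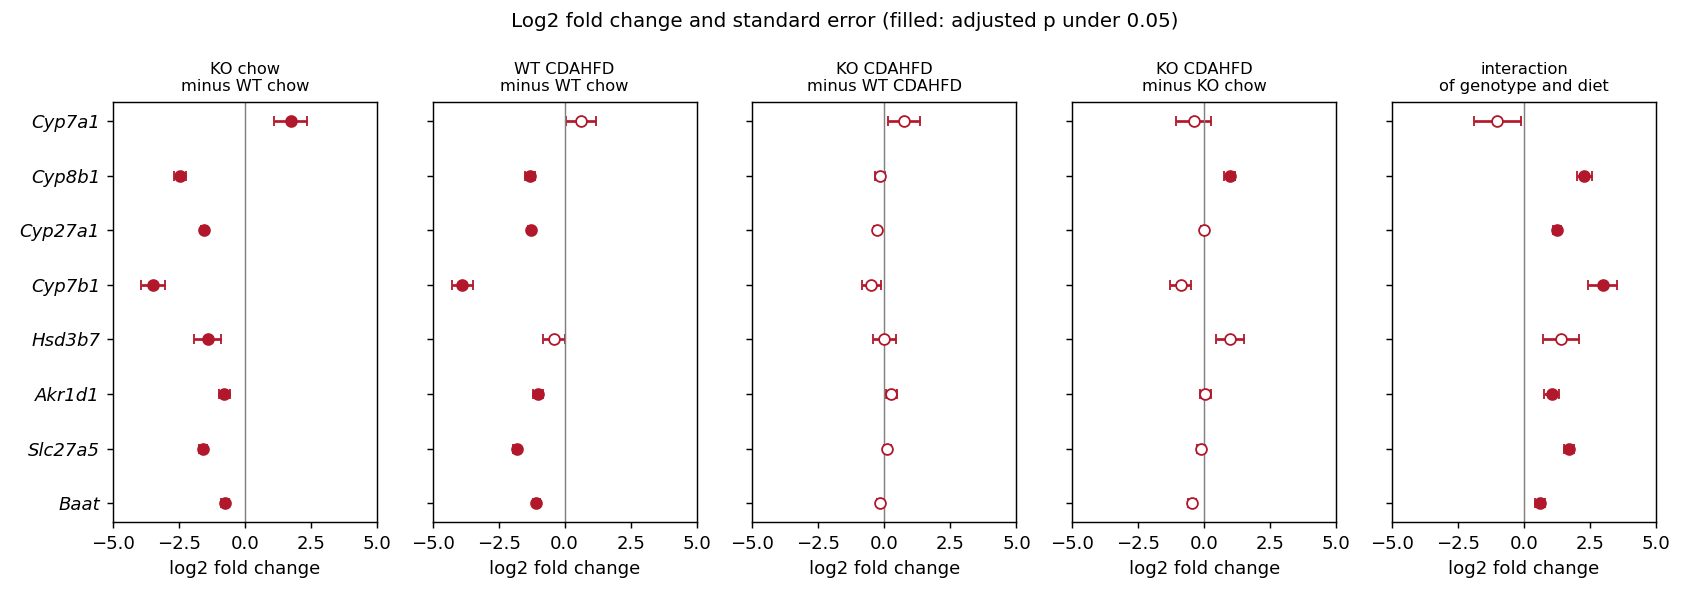
Log2 fold change of the 8 enzymes in the 4 comparisons of groups and the interaction, with standard errors. Filled points have an adjusted p under 0.05: all 8 in KO chow against WT chow, 6 in WT CDAHFD against WT chow, none between the genotypes on CDAHFD, Cyp8b1 between the diets in KO mice, and 6 in the interaction.

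The liver is a mixture, and in bulk RNA fewer hepatocytes and less of a transcript per hepatocyte cannot be told apart. Summed over 7 hepatocyte markers, the level was 95338 to 111850 CPM in WT chow and 76809 and 88984 CPM in KO chow. On CDAHFD the sum was 48961 to 58844 CPM for WT and 45951 to 60582 CPM for KO mice. Of these 7 markers, 6 fell in KO chow and 7 in WT CDAHFD. Most of the hepatocyte sum was Alb, with a mean of 68645 of 106520 CPM in WT chow and 59606 of 82896 CPM in KO chow. Alb was the marker not called in KO chow, at -0.20 ± 0.19 (log2, adjusted p = 0.419), where the median of the 7 was -0.67. For WT CDAHFD the Alb change was -0.86, beside a median of -1.05. Scaling to this sum, used below, therefore rests mainly on Alb. The 9 macrophage markers summed to 324 to 602 CPM in WT chow, 1258 and 1506 CPM in KO chow and 2052 to 2847 CPM in the CDAHFD groups, and 8 were called higher in KO chow and 7 in WT CDAHFD. The 9 stellate cell and fibroblast markers summed to 240 to 358 CPM in WT chow and 1351 to 2377 CPM elsewhere. Of these 9, 6 were called higher in KO chow and 6 in WT CDAHFD. The 7 cholangiocyte markers summed to 47.4 to 80.6 CPM in WT chow and 169 to 898 CPM elsewhere. Of these 7, 6 were called higher in KO chow and 7 in WT CDAHFD. Most of the cholangiocyte sum was Spp1, with a mean of 424 of 481 CPM in WT CDAHFD. Scaled to the hepatocyte markers in place of TMM, a choice made after the data were seen, the median of all genes stood at 0.37 in KO chow and 0.90 in WT CDAHFD on the log2 scale, beside 0.00 and -0.05 with TMM. Under this scaling Cyp7b1 gave -3.06 in KO chow (adjusted p = 0.000127) and -2.90 in WT CDAHFD (adjusted p = 1.38e-05), and Slc27a5 gave -1.21 (adjusted p = 1.14e-05) and -0.87 (adjusted p = 1.81e-05). Cyp27a1 gave -1.18 (adjusted p = 7.29e-05) and -0.34 (adjusted p = 0.0439), and Cyp8b1 gave -2.09 (adjusted p = 4.69e-06) and -0.38 (adjusted p = 0.0647). Baat and Akr1d1 were not called in either comparison, with -0.38 and -0.12 for Baat and -0.41 and -0.05 for Akr1d1, whereas Cyp7a1 was called higher in both, with 2.03 (adjusted p = 0.0173) and 1.51 (adjusted p = 0.0246). Endothelial, lymphocyte, neutrophil and red blood cell markers were called higher in 0 of 6, 2 of 7, 3 of 5 and 1 of 5 genes tested in KO chow, and in 0, 2, 4 and 0 in WT CDAHFD. They were called lower in 0, 1, 0 and 1 genes in KO chow and in 3, 1, 0 and 5 in WT CDAHFD. For all these marker counts, 22.0% of all genes were called higher and 17.0% lower in KO chow, and 26.1% and 25.0% in WT CDAHFD. The part of the cell mixture in the enzyme levels was not tested beyond the scaling above.

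Further along the pathway, 20 other genes of bile acid synthesis and handling were tested. In KO chow 14 fell and 3 rose, with a median of -0.84, and in WT CDAHFD 16 fell and 3 rose, with a median of -0.65. Over all genes 17.0% were called lower and 22.0% higher in KO chow, and 25.0% and 26.1% in WT CDAHFD. Sult2a8, a bile acid sulfotransferase of male mouse liver, was at 931 to 1780 CPM in WT chow, 156 to 159 CPM in WT CDAHFD, 25.4 and 34.0 CPM in KO chow and 72.7 to 168 CPM in KO CDAHFD. It fell by 5.57 ± 0.39 (log2) in KO chow (adjusted p = 5.34e-07) and it fell by 3.17 ± 0.29 in WT CDAHFD (adjusted p = 1.74e-06). As with Cyp8b1, KO chow was the lowest group, and Sult2a8 rose by 2.01 ± 0.33 in KO CDAHFD against KO chow (adjusted p = 0.00517). Cyp3a11, which hydroxylates bile acids and drugs, ran the other way. It was at 266 to 309 CPM in WT chow, 1568 to 1830 CPM in WT CDAHFD, 3838 and 3151 CPM in KO chow and 821 to 1164 CPM in KO CDAHFD, a rise of 3.56 ± 0.15 in KO chow (adjusted p = 1.57e-08) and 2.52 ± 0.14 in WT CDAHFD (adjusted p = 3.44e-08). Hsd17b4, a peroxisomal enzyme of side-chain shortening, was the only 1 of the 20 called between genotypes on CDAHFD, at 189 to 204 CPM in the KO against 369 to 402 CPM in the WT, a fall of 0.97 ± 0.11 (adjusted p = 0.0012). Akr1c14, a hydroxysteroid dehydrogenase, and Amacr, the side-chain racemase, fell by 1.46 ± 0.14 (adjusted p = 2.82e-06) and by 1.0 ± 0.11 (adjusted p = 9.43e-06) in WT CDAHFD. Ch25h, cholesterol 25-hydroxylase, had 0 or 1 count in each WT chow library and 25 to 71 counts in each of the others, a level under 1.4 CPM.

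Among 16 regulators of the pathway 15 were tested, and Fgf15, the intestinal signal to the liver, did not pass the filter. In KO chow 8 fell and 0 rose, beside 17.0% of all genes called lower and 22.0% higher. In WT CDAHFD 11 fell and 1 rose, beside 25.0% and 26.1% of all genes. FXR (Nr1h4) was at 132 to 212 CPM in WT chow, 69.1 to 71.2 CPM in WT CDAHFD, 74.1 and 87.3 CPM in KO chow and 71.0 to 75.9 CPM in KO CDAHFD. Nr1h4 fell by 1.10 ± 0.17 (log2) in KO chow (adjusted p = 0.000257) and by 1.3 ± 0.15 in WT CDAHFD (adjusted p = 1.17e-05). Its target Nr0b2, a repressor of Cyp7a1 and Cyp8b1, was at 61.5 to 73.2 CPM in WT chow, 7.84 to 28.0 CPM in WT CDAHFD, 13.1 and 8.44 CPM in KO chow and 10.8 to 42.0 CPM in KO CDAHFD. Nr0b2 fell by 2.63 ± 0.54 in KO chow (adjusted p = 0.00202) and by 1.94 ± 0.44 in WT CDAHFD (adjusted p = 0.00266). In KO chow Nr1i3, the receptor CAR, fell by 1.89 ± 0.31 (adjusted p = 0.000378) and Rxra, the partner of these receptors, by 1.0 ± 0.18 (adjusted p = 0.000712). In WT CDAHFD Nr5a2, an activator of the hydroxylase genes, fell by 0.79 ± 0.11 (adjusted p = 9.24e-05), Nr1i2, the receptor PXR, by 0.64 ± 0.12 (adjusted p = 0.000815) and Rxra by 0.83 ± 0.15 (adjusted p = 0.000593).

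Cyp7b1 is expressed more in male than in female mouse liver, so genes of known sex bias were set beside it. Of 10 male-biased genes, KO chow and WT CDAHFD each had 9 that fell, and the medians were -2.77 and -2.51. Among all genes 17.0% and 25.0% were called lower in these comparisons. Hsd3b5 was at 478 to 741 CPM in WT chow and at 0.238 to 7.69 CPM in the other 8 libraries. Slco1a1 fell by 3.39 ± 0.26 (adjusted p = 9.49e-07) and 2.89 ± 0.21 (adjusted p = 2.84e-07), Cyp2d9 by 2.77 ± 0.27 (adjusted p = 6.91e-06) and 2.97 ± 0.23 (adjusted p = 5.25e-07), and Gstp1 by 1.57 ± 0.17 (adjusted p = 1.86e-05) and 2.12 ± 0.15 (adjusted p = 2.76e-07). Of 12 female-biased genes 8 were tested, of which 4 rose in KO chow and 5 in WT CDAHFD, beside 22.0% and 26.1% of all genes. Cyp2a4, for example, was at 0.0388 to 0.367 CPM in WT chow, 4.83 to 6.95 CPM in WT CDAHFD, 68.8 and 304 CPM in KO chow and 28.1 to 147 CPM in KO CDAHFD. Prom1, which also marks bile duct cells, rose by 3.24 ± 0.26 in KO chow (adjusted p = 1.42e-06) and by 2.46 ± 0.24 in WT CDAHFD (adjusted p = 3.53e-06). The link between these genes and Cyp7b1 was not tested. Of the 10 clock genes high with Dbp, Hlf fell in KO chow, by 1.55 ± 0.41 (adjusted p = 0.00966), and Hlf and Per2 fell in WT CDAHFD, by 1.81 ± 0.36 (adjusted p = 0.00103) and 1.27 ± 0.41 (adjusted p = 0.0193). Of the 5 high with Arntl, Clock fell in KO chow, by 0.63 ± 0.18 (adjusted p = 0.0126). These counts of clock genes are near or under the shares of all genes called lower, 17.0% in KO chow and 25.0% in WT CDAHFD. Nothing is read from them about the clock lists.

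Genes with the most similar profile were found over the 12 libraries as the smallest root mean square difference of centred log2 CPM over 13339 genes averaging 1 CPM or more. Cyp7b1 was nearest to Slc22a28 (0.34), Mup3 (0.37) and Mup21 (0.45), beside a spread of Cyp7b1 itself of 1.94. Mean Mup3, a major urinary protein gene, was 15190 CPM in WT chow and 1073 to 1246 CPM in the other groups, and its many near-identical relatives make its count uncertain. Nearest to Cyp27a1 were 4933404O12Rik (0.11), Ldhd (0.11) and Cyp4v3 (0.14), beside its own spread of 0.70. Cyp8b1 was nearest to Ugt3a1 (0.26), Gm19522 (0.28) and Tlcd2 (0.30), beside 0.88. For Cyp7a1 no gene came closer than 0.59 (Aldh1a3, Limch1 at 0.60 and Zgrf1 at 0.60), beside its own spread of 0.98.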

How the data were processed

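The counts were deposited by the authors as a table of whole-number reads per gene, not normalised, for 12 non-directional poly(A) libraries of mouse liver. Per the labels, reads were checked with FastQC 0.11.5 and aligned with STAR 2.7.3a to GRCm38, and DESeq2 was used. The read counter is not given in the sources used here. Of 55357 identifiers 94.1% are in GENCODE M21, which gave positions and merged exon lengths.

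Counts were tested with edgeR 4.0.16 (filterByExpr, TMM, quasi-likelihood test, group means over 12 libraries) and, as alternatives, DESeq2 1.42.0, library size alone, no filter, only the groups compared, the replicate number as block, a clock score as covariate and each library left out. Scaling to hepatocyte markers and leaving out libraries of high Dbp were added after seeing the data. The marker scaling used the sum of the markers, most of which is Alb. The clock score is the mean log2 CPM of the 10 clock genes high with Dbp minus that of the 5 high with Arntl. log2 CPM used a prior count of 2. Scripts were tested on simulated data. Genes outside the 8 enzymes were named as the 4 of each list with the smallest adjusted p in the comparisons with WT chow, and the 3 nearest profiles of each route enzyme. The enzymes and lists were chosen with earlier results of these data known. 1 regulator of the list is not reported here. The hepatocyte marker Tf was not found under that symbol.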

Additional observations from a re-analysis of the deposited data

Results flagged for a closer look

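The genotype effect differed between the diets, by the interaction test, for 6 of the 8 enzymes. The difference was 2.28 (log2) for Cyp8b1, 1.26 for Cyp27a1, 2.97 for Cyp7b1, 1.04 for Akr1d1, 1.69 for Slc27a5 and 0.60 for Baat. In each of these the KO lay below the WT on chow. On CDAHFD none was called between genotypes by edgeR, and the KO mean was above the WT mean for Akr1d1 and Slc27a5 and below it for the other 4.

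The same test was passed by other genes named in the text. Positive values were 5.18 for Sult2a8, 1.28 for Akr1c14 and 0.70 for Amacr in the pathway, 1.16 for Nr1h4, 2.59 for Nr1i3, 3.16 for Nr0b2 and 0.90 for Rxra among the regulators, 6.55 for Hsd3b5, 3.21 for Slco1a1, 2.30 for Cyp2d9 and 1.09 for Gstp1 among male-biased genes, and 2.10 for Hlf and 2.45 for Per2 among clock genes. Negative values were -4.31 for Cyp3a11, -6.00 for Cyp2a4, -2.49 for Prom1, -5.42 for Ch25h and -7.45 for Cyp3a44. Ch25h had at most 1 count and Cyp3a44 had 0 counts in every WT chow library, so these fitted values depend on the prior count. The explanation of these differences was not tested.

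The female-biased gene Cyp2b13 had 1 count, 0.0315 CPM, in WT chow 2 and 0 counts in the other 3 WT chow libraries, so that WT chow 2 stood apart by Dixon's ratio. A single count among zeros gives this ratio by construction, and nothing is read from it.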

How the results depend on the processing

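Across 792 values of the 8 enzymes under 20 alternatives, 711 kept their direction and side of the threshold, 48 lost the call, 10 gained it and 23 changed sign; none of the 23 had been called. In KO chow against WT chow 8 enzymes were called, 5 with library size alone and 5 when scaled to the hepatocyte markers (Hsd3b7, Akr1d1 and Baat being lost in each), and 6 to 8 with a library left out. In WT CDAHFD against WT chow the count was 6, all lower, also with each library left out, and 4 with hepatocyte scaling (Cyp27a1, Cyp7b1 and Slc27a5 lower, Cyp7a1 higher). Between genotypes on CDAHFD it was 0, with DESeq2 1, and 0 with each library left out. Between diets in KO mice it was 1, with DESeq2 2 (Cyp8b1, Baat), with no filter 2 and without the libraries of high Dbp 2 (Cyp8b1, Cyp7b1; KO chow is then 1 library, assumed to vary like those of other groups), with hepatocyte scaling 5, all higher, where the median of all genes stood at 0.65, and 0 to 2 with a library left out. In the interaction it was 6, and 4 to 7 with a library left out. Library size alone put the median of all genes at 0.40 in KO chow and 0.51 in WT CDAHFD, beside 0.00 and -0.05 with TMM, and took the share of higher calls from 56.4% to 86.0% and from 51.0% to 88.6%. In KO CDAHFD against KO chow that share went from 60.7% to 90.0%, and in the interaction from 37.3% to 13.7%. With hepatocyte scaling these 4 shares were 84.1%, 95.8%, 99.0% and 18.1%.

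The values that changed sign were as follows. Hsd3b7 in WT CDAHFD against WT chow was 0.14 with library size alone and 0.54 with hepatocyte scaling. In KO CDAHFD against WT CDAHFD Hsd3b7 was 0.12 with the clock score, 0.024 with library size alone, 0.017 with hepatocyte scaling, 0.42 without KO CDAHFD 3, 0.12 without WT CDAHFD 1 and 0.42 without the libraries of high Dbp, and Cyp7a1 was -0.27 without KO CDAHFD 3 and -0.28 without the libraries of high Dbp. In KO CDAHFD against KO chow hepatocyte scaling gave 0.41 for Cyp7a1, 0.62 for Cyp27a1, 0.53 for Slc27a5 and 0.16 for Baat, and library size alone gave 0.18 for Cyp27a1 and 0.080 for Slc27a5. Cyp27a1 was there 0.0088 with DESeq2 and 0.11 without KO chow 1, Cyp7b1 0.045 and Akr1d1 -0.11 without KO chow 1, Akr1d1 -0.015 with the replicate block, and Cyp7a1 0.64 without KO chow 2. The interaction of Cyp7a1 was 0.026 without KO chow 2. Over all libraries left out in turn, these ranges ran from -0.27 to 1.13 for Cyp7a1 and -0.45 to 0.42 for Hsd3b7 in KO CDAHFD against WT CDAHFD. In KO CDAHFD against KO chow they ran from -1.41 to 0.64 for Cyp7a1, -0.13 to 0.11 for Cyp27a1, -1.46 to 0.045 for Cyp7b1 and -0.11 to 0.22 for Akr1d1, and in the interaction from -2.02 to 0.026 for Cyp7a1. The route difference of KO CDAHFD against KO chow was 0.60, from -0.32 without KO chow 1 to 1.52 without KO chow 2, and in KO chow against WT chow it was 1.28 to 3.12 with a library left out. For CDAHFD against chow in WT mice that range was 2.13 to 2.50, and for KO against WT on CDAHFD 0.09, without KO CDAHFD 3, to 0.92. The cause was not tested.

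Replicate numbers are shared by the sample titles. The sample descriptions instead number the libraries on from chow to CDAHFD within each genotype. There the diets of a genotype share no number. The deviations of same-numbered libraries from their group means correlated from -0.242 to 0.266, and those of different-numbered libraries from -0.266 to 0.245. Centring on the group mean makes the deviations of the KO chow libraries mirror images, and these pairs set both ranges. The correlations therefore cannot decide whether the numbers pair the samples. With the replicate block the counts called were 8, 6, 0, 1 and 5 in the 5 comparisons, the interaction of Baat being lost (0.62, adjusted p = 0.0618). Over all genes the block moved the count called in KO CDAHFD against KO chow from 1075 to 640.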
